A study of Mus musculus with 6 samples.

Results

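The genes described here are the secreted matricellular proteins Ccn1 and Ccn2 together with Ankrd1, Amotl2, Yap1, Wwtr1, Tead2, Tead4, Lats1 and Lats2, which belong to the YAP/TAZ-TEAD pathway. They were picked by name, 10 of the 55487 genes listed, with the genotype comparison of these libraries in view. Their genotype values are therefore a description, and no test of that comparison is used as support for them. RNA was taken from vascular endothelial cells (VECs) sorted by flow cytometry, as cells positive for both GFP and tdTomato, from mouse retinas at P7.5. The 3 Bmal1;CKO samples were Bmal1 FL/FL;tdTomato FL/+;Pdgf-icreER, and the 3 controls were tdTomato FL/+;Pdgf-icreER, with no floxed Bmal1. Both groups thus carried the tdTomato reporter and the tamoxifen-inducible Cre driven by the Pdgf promoter, and pups of both groups were given tamoxifen over P0.5 to P2.5. The animals were C57BL/6J and were collected at ZT6, counted in hours from lights on, so that each value is a single time of day. Where nothing says that libraries came from separate litters, the spread between libraries may be partly technical.

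The 6 libraries held 71145068 to 104017800 reads on genes. Values are normalized counts, that is reads divided by a size factor of the library (0.711 to 1.40), unless they are called TPM. TPM divides reads by the exonic length of the gene and then by the library's total of such values, without the size factor. It is the scale on which different genes were compared. For a given gene, the 2 scales rank libraries differently only through this scaling of whole libraries, since its length is constant. Libraries 1, 2 and 3 are control and libraries 4, 5 and 6 are Bmal1;CKO. Arntl, the gene that encodes BMAL1, had 1700.4, 3489 and 2928 normalized counts in the control libraries and 1779, 2747 and 2415 in the Bmal1;CKO libraries. These ranges overlap, and a gene total does not show whether the floxed exon was removed, so in these counts the genotypes rest on the labels. By ddPCR, the paper reports significantly less Bmal1 transcript in sorted VECs of the mutant genotype than of the control genotype. All 12 VEC markers listed (Pecam1, Cdh5, Cldn5 and others) had reads in every library. So did the 9 microglia markers, whose summed TPM of 22342 to 51753 stood above the 1243 to 2883 TPM of the VEC markers in every library. The RNA therefore held transcripts of other retinal cells, and for each gene below the share that came from VECs cannot be told apart from the share of those cells. In such samples fewer cells of a type and less RNA per cell also cannot be told apart.

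The Hippo pathway is a kinase cascade in which MST kinases activate the kinases LATS1 and LATS2, and these phosphorylate the coactivators YAP and TAZ and keep them out of the nucleus. Unphosphorylated YAP and TAZ bind the TEAD transcription factors and turn on genes such as Ccn1, Ccn2, Ankrd1, Amotl2 and Lats2, of which Amotl2 and Lats2 are brakes on the same pathway. In the growing retinal vasculature YAP and TAZ are known for their roles in tip cell migration and vessel branching, and CCN1 and CCN2 are matrix proteins made by the sprouting endothelium. The activity of YAP and TAZ is set largely by phosphorylation and location of the proteins, which RNA does not show.

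The TEAD factors bind a short core, CATTCC on one strand and GGAATG on the other. Promoter windows from RefSeq (GRCm38.p6), taken as the 250 bases before a start site, were given for 8 of the 10 genes, all but Ccn2 and Tead4. These were 10 windows, since Wwtr1 and Lats2 had 2 each. The core, searched on both strands, was in a window of 5 of those 8 genes (Ccn1, Ankrd1, Amotl2, Yap1 and Wwtr1). It was in 12.6% of all 32851 windows, a share of windows and not of genes. Neither an AP-1 site (TGANTCA, found in 6.75% of all windows) nor a CArG box, the site of SRF (1.47%), was in any of the 10 windows. A match describes these letters only, since no binding was measured in these cells. The Ccn1 window is shown whole because Ccn1 carries the largest genotype difference of the set. It lies at chr3:145649986-145650235 on the minus strand, directly before the gene, and its TEAD core, in capitals, is 103 bases before the start.
Ccn1 promoter: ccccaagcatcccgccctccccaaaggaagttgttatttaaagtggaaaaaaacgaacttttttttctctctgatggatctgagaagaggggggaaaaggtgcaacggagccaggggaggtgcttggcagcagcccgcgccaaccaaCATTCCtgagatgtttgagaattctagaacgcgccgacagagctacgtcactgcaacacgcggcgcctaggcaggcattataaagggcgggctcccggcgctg
The cores of the other promoters are shown in 30-base stretches, 5′ to 3′ along the gene, with the core in capitals. They lie at chr19:36120037-36120066 and chr19:36119950-36119979 (Ankrd1, minus strand, 210 and 123 bases before the start), chr9:102717727-102717756 (Amotl2, plus strand, 65 bases), chr9:8004720-8004749 (Yap1, minus strand, 141 bases) and chr3:57576029-57576058 (Wwtr1, minus strand, 136 bases).
Ankrd1 first site: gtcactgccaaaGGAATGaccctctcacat
Ankrd1 second site: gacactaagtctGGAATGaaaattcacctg
Amotl2: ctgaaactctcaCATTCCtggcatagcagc
Yap1: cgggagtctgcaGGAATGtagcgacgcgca
Wwtr1: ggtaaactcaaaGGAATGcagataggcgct
The Ankrd1 and Amotl2 stretches lie inside the longer GENCODE gene, which starts upstream of the RefSeq start used here. The Ccn1 and Amotl2 promoters hold the core as CATTCC and the other 3 genes as GGAATG. The Wwtr1 site also lies in the second window of that gene, 170 bases before its start. The 5 genes with a core differed in level from Ccn1, with the highest TPM of the set, to Ankrd1, which was nearly absent.

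Ccn1 (ENSMUSG00000028195, chromosome 3 of GRCm38, 145646975 to 145649981, minus strand) encodes CCN1, also called CYR61, a secreted protein that binds integrins and acts on endothelial adhesion and sprouting. It had 5205, 7676 and 8981 normalized counts in control libraries 1, 2 and 3. The Bmal1;CKO libraries 4, 5 and 6 had 36485, 18789 and 19219.7. Each Bmal1;CKO library lay above each control, and library 4 stood well above the other two of its group. The Bmal1;CKO mean of 24831 ± 10095 was 3.41 times the control mean of 7287 ± 1918 (SD, n = 3 each), and the fitted log2 fold change was 1.73 (standard error 0.35). Without library 4 the log2 fold change was 1.42, the lowest value when any single library was left out, and it was 1.73 to 1.77 under the other tests, scalings and filters. On the TPM scale the control libraries had 39.3, 83.9 and 123 and the Bmal1;CKO libraries 318, 211 and 253, so that the groups were separate on this scale too. The order of the 6 libraries was the same on both scales, with control library 1 lowest and library 4 highest.

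Ccn2 (ENSMUSG00000019997, chromosome 10, 24595441 to 24598683, plus strand) encodes CCN2, or CTGF, the paralog of CCN1 that binds growth factors and matrix in endothelium, pericytes and fibroblasts. It had 1976, 3075 and 4281 normalized counts in control and 3049, 2206 and 3751 in Bmal1;CKO. The groups overlapped over most of their range, with both the lowest and the highest value in control. The means of 3111 ± 1153 and 3002 ± 773 (SD, n = 3 each) gave a log2 fold change of -0.01 (standard error 0.37), and leaving out control library 1 or control library 3 gave -0.31 and 0.25. An antisense transcript, Gm15270, shares 665 bp of exon with Ccn2, and the library kit does not mark strand, so reads of the pair cannot be told apart.

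The ratio of Ccn1 to Ccn2, both in TPM, sets the paralogs side by side within each library and does not depend on the size factors. It was 3.73, 3.54 and 2.97 in control libraries 1, 2 and 3. In Bmal1;CKO libraries 4, 5 and 6 it was 17.0, 12.1 and 7.26. The lowest Bmal1;CKO ratio was above the highest control ratio, while the spread within Bmal1;CKO was wider than within control. Ccn1 is part of the genotype contrast that chose the genes, so this ratio is also a description.

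**Figure D1:**
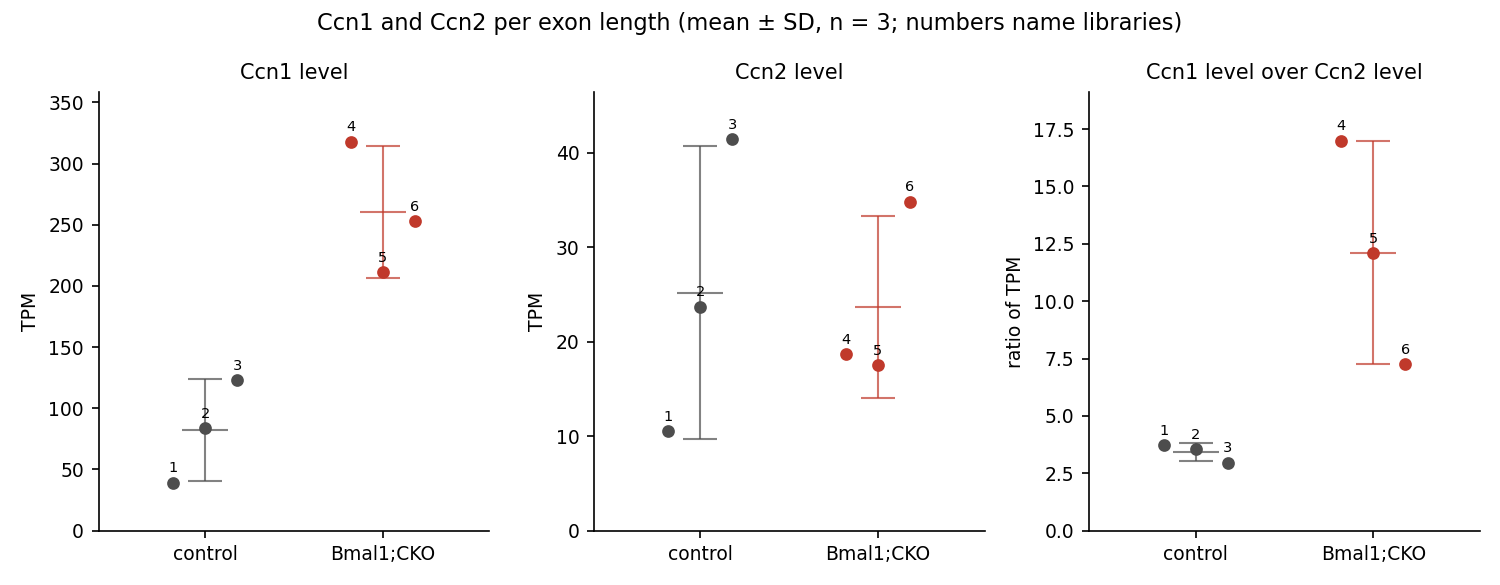
Ccn1 in TPM, Ccn2 in TPM and their ratio, as points for each library (numbered) with the mean ± SD of control and of Bmal1;CKO (n = 3 each) as bars. Ccn1 runs from 39.3 to 123 TPM in control and from 211 to 318 in Bmal1;CKO, Ccn2 overlaps, and the ratio is 2.97 to 3.73 against 7.26 to 17.0.

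The other members of the CCN family were low or absent. Ccn4, a Wnt-regulated member, had 122, 623 and 1250.4 normalized counts in control and 719, 729.8 and 1217 in Bmal1;CKO, with the lowest and highest values both in control, and its log2 fold change was 0.91 (standard error 0.83), or -0.04 without control library 1. Ccn3, also called Nov, had 451, 0 and 35 reads in control and 0, 1 and 0 in Bmal1;CKO, so that almost all of its reads came from control library 1. Ccn6 had 98.4, 37.1 and 0 normalized counts against 0, 27.6 and 18.9, and its exons share 482 bp with Tube1 on the other strand. Ccn5 had 0 reads in all 6 libraries, which allows 2.14 to 4.22 normalized counts per library, the value of 3 reads, by counting error alone. Ccn1 made up 72.0% to 75.8% of the summed TPM of the 6 CCN genes in control and 86.1% to 93.8% in Bmal1;CKO. Ccn2 made up 19.4% to 24.2% in control and 5.53% to 11.9% in Bmal1;CKO.

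Amotl2 (ENSMUSG00000032531, chromosome 9, 102716671 to 102733418, plus strand) encodes angiomotin-like 2, a junction protein that binds YAP and holds it in the cytoplasm and is itself a YAP target. It had 1458, 2069 and 2635 normalized counts in control and 3212, 3515 and 3434 in Bmal1;CKO. Every Bmal1;CKO library was above every control, and the Bmal1;CKO libraries were close to each other. The means of 2054 ± 589 and 3387 ± 157 (SD, n = 3 each) had a ratio of 1.65 and a log2 fold change of 0.76 (standard error 0.30), with 0.54 as the lowest value (control library 1 left out) and 0.96 as the highest (control library 3 left out). The separation did not hold in TPM, where control libraries had 3.53, 7.26 and 11.6 and Bmal1;CKO libraries 8.98, 12.7 and 14.5.

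Ankrd1 (ENSMUSG00000024803, chromosome 19, 36111960 to 36120099, minus strand) encodes a nuclear ankyrin repeat protein that is widely used as a YAP/TAZ target in muscle and in cultured cells. It had 0 reads in each control library and 0, 2 and 1 reads in the Bmal1;CKO libraries. All values are at or under 3 reads, so no fold is given, and expression was not detectable at this depth. Ankrd1 was the 1 gene of the 10 that did not pass the filter of 10 reads in 3 libraries.

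Among the coactivators, Wwtr1, which encodes TAZ, was far more abundant than Yap1, which encodes YAP. Wwtr1 (ENSMUSG00000027803, chromosome 3, 57455648 to 57575910, minus strand) had 14591, 5918 and 7050.0 normalized counts in control and 10055, 6132 and 9447 in Bmal1;CKO. Control library 1 was the highest and control library 2 the lowest, so the Bmal1;CKO values all lay inside the control range. The log2 fold change was -0.02 (standard error 0.39) and became 0.37 without control library 1. Yap1 (ENSMUSG00000053110, chromosome 9, 7931998 to 8004596, minus strand) had 639, 393 and 862 normalized counts in control and 405, 288 and 733 in Bmal1;CKO. The groups overlapped, with a log2 fold change of -0.45 (standard error 0.55, and -0.81 to -0.14 with a library left out), and a short antisense transcript, Gm20416, shares 116 bp of its exons. In TPM, Wwtr1 was 44.3, 29.1 and 15.8 times Yap1 in control libraries 1, 2 and 3 and 48.1, 41.2 and 25.0 times Yap1 in Bmal1;CKO libraries 4, 5 and 6. Wwtr1 gave 94.1% to 98.0% of the TPM of the pair in every library.

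The TEAD factors bind DNA for YAP and TAZ, which do not bind it themselves. Tead2 (ENSMUSG00000030796, chromosome 7, 45215752 to 45233644, plus strand) had 1362, 1111 and 1956 normalized counts in control and 2284, 1782 and 2019.9 in Bmal1;CKO. Control library 3 lay within the Bmal1;CKO values, and the other controls lay below them, with a log2 fold change of 0.49 (standard error 0.32, and 0.31 to 0.71 with a library left out). Tead4 (ENSMUSG00000030353, chromosome 6, 128224287 to 128300823, minus strand) had 140.3, 281 and 218 normalized counts against 225, 54.4 and 292. Its groups overlapped, and the fitted log2 value of -0.42 (standard error 0.83) was -0.16 by DESeq2 and became 0.32 without the low library 5. Tead1 had 931, 794 and 365 normalized counts against 373, 869.8 and 503, which overlapped (log2 fold change -0.24, standard error 0.55). Tead3 had 375, 278 and 271 against 508, 588 and 401, with every Bmal1;CKO library above every control (log2 fold change 0.69, standard error 0.47, unadjusted p = 0.185 by limma-trend). Tead2 was the leading TEAD transcript in all 6 libraries, with 56.6% to 76.2% of the TPM of the 4 genes in control and 69.0% to 74.2% in Bmal1;CKO. The Tead4 share ran from 8.70% to 19.1% in control and from 2.81% to 13.5% in Bmal1;CKO.

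The kinases Lats1 and Lats2, which inhibit YAP and TAZ, were both low. Lats1 (ENSMUSG00000040021, chromosome 10, 7681213 to 7716460, plus strand) had 613, 972 and 614 normalized counts in control and 727, 884 and 869.9 in Bmal1;CKO, all of the latter within the control range (log2 fold change 0.20, standard error 0.38, and 0.09 to 0.43 with a library left out). Lats2 (ENSMUSG00000021959, chromosome 14, 57689661 to 57758388, minus strand) had 395, 364 and 588 against 246, 479 and 498, with the lowest value in library 4 and the highest in control library 3 (log2 fold change -0.18, standard error 0.52). Lats2 shares 2955 bp of exon with Gm49361 on its own strand, so its count is uncertain. Lats1 gave 49.9% to 71.8% of the TPM of the pair in control and 62.6% to 73.8% in Bmal1;CKO, and only in control library 3 did Lats2 reach a like level.

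**Figure D2:**
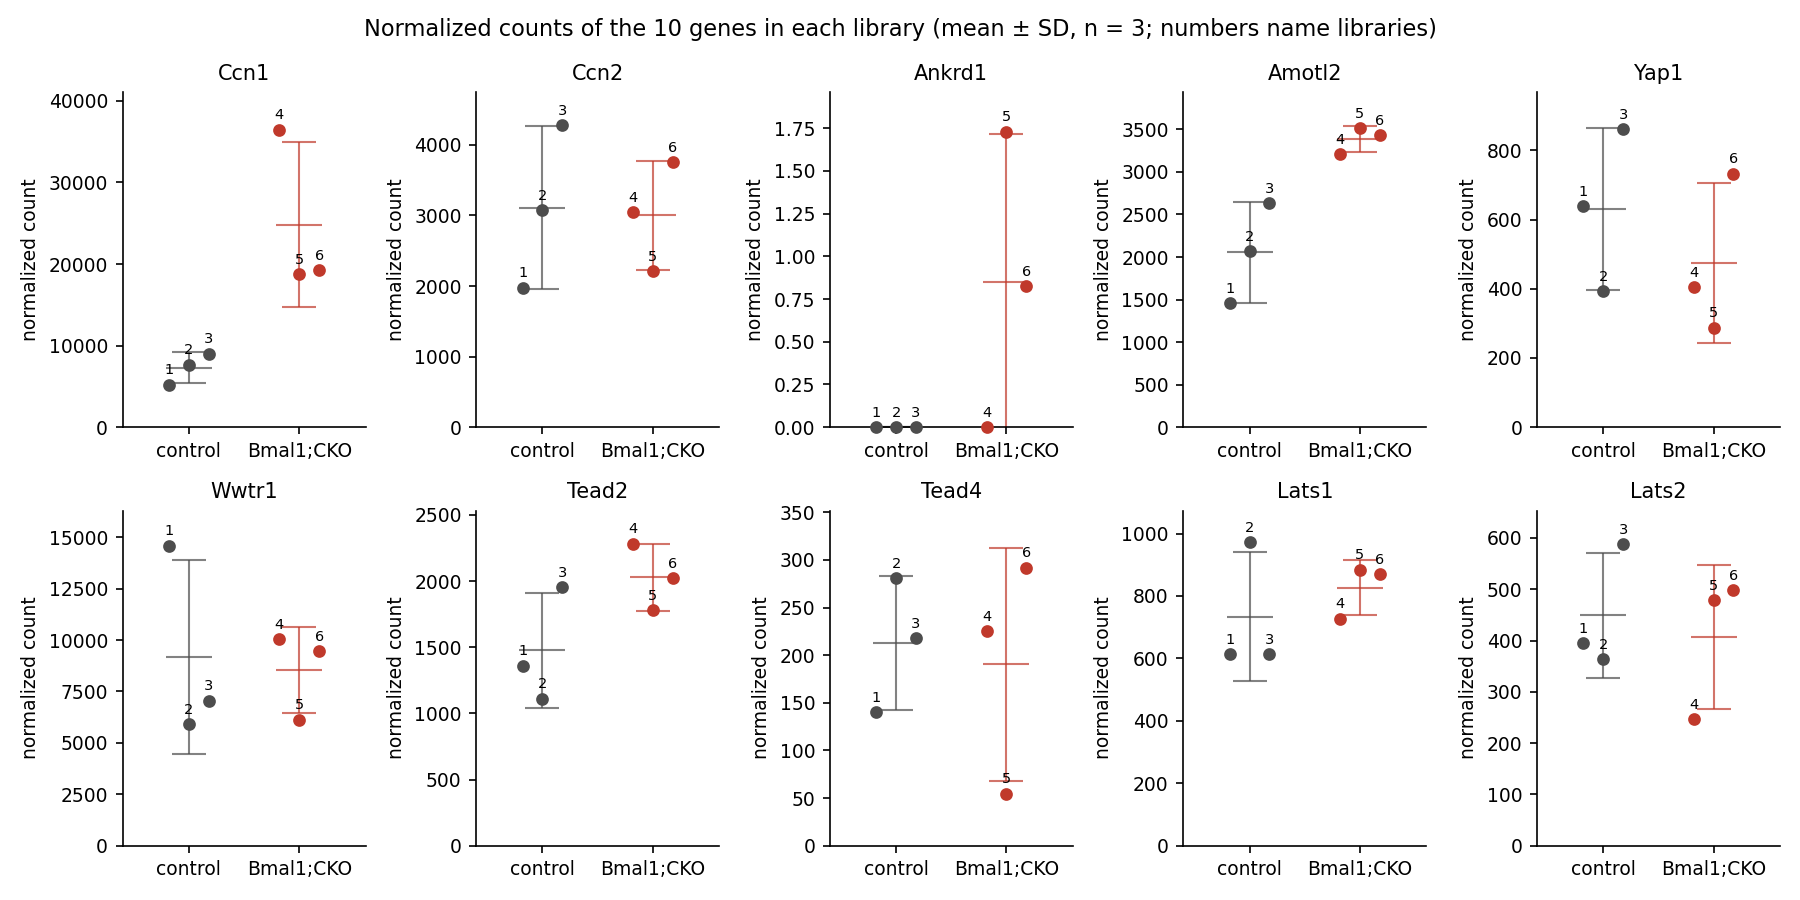
Normalized counts of the 10 genes on linear axes from 0, a panel for each gene, with the 6 libraries as numbered points and the mean ± SD (n = 3) of control and of Bmal1;CKO as bars. The groups are separate for Ccn1 and Amotl2 and overlap for the other 8 genes, of which Ankrd1 had at most 2 reads.

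**Figure D3:**
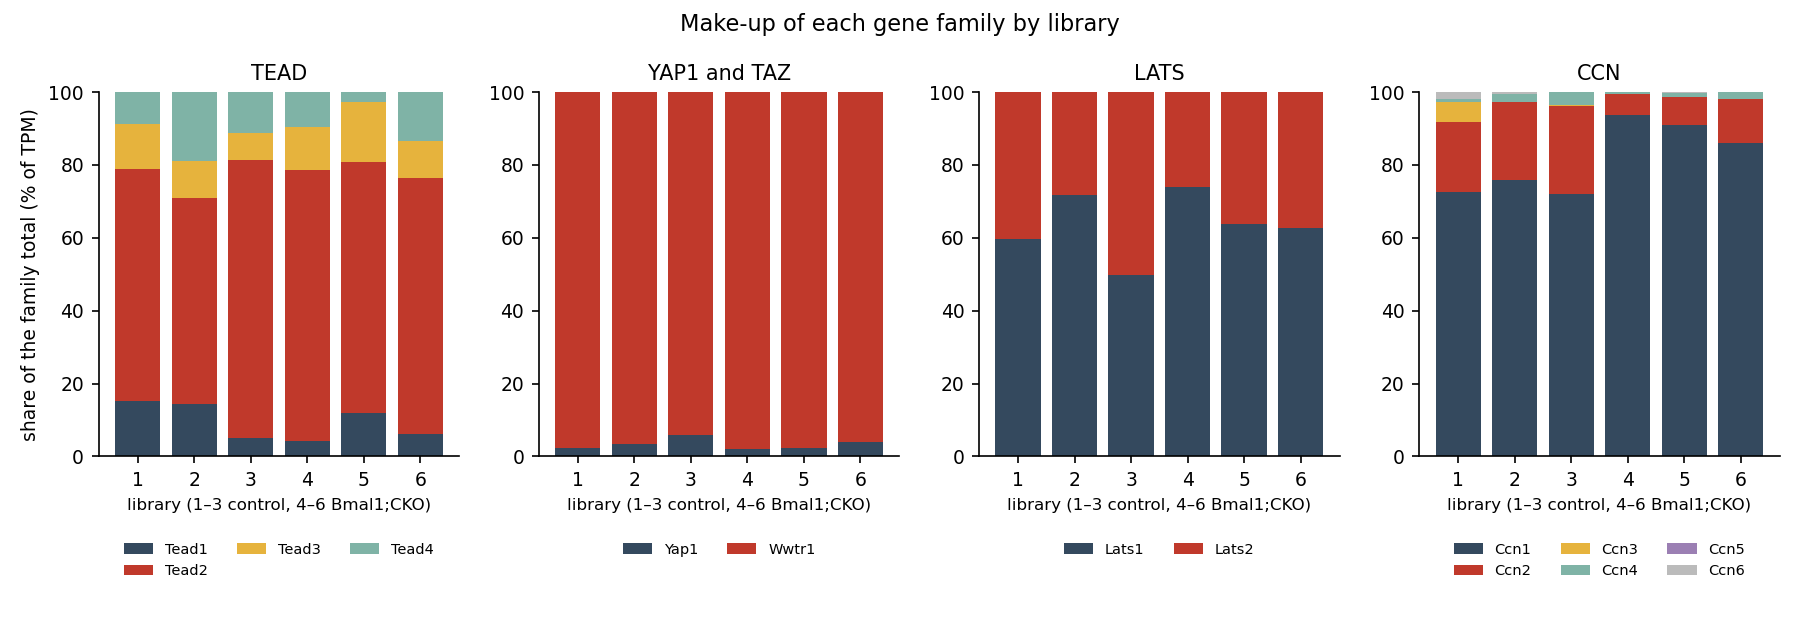
Stacked bars of the share of the summed TPM taken by each paralog, in percent, in each of the 6 libraries for the TEAD, coactivator (YAP1 and TAZ), LATS and CCN families. Tead2, Wwtr1 and Ccn1 lead their families in all 6 libraries, and the Ccn1 share was 72.0% to 75.8% in control and 86.1% to 93.8% in Bmal1;CKO.

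Ordered by mean TPM over the 6 libraries, Ccn1 came first with 171 ± 107 (SD, n = 6), then Wwtr1 with 38.9 ± 9.78 and Ccn2 with 24.4 ± 11.6. Amotl2 (9.75 ± 3.99) and Tead2 (8.13 ± 2.93) followed, and Lats1 (2.37 ± 0.730), Lats2 (1.40 ± 0.647), Yap1 (1.36 ± 0.785) and Tead4 (1.27 ± 0.707) were lower still, with Ankrd1 last at 0.00352 ± 0.00578 (SD, n = 6 each). These SDs pool both genotypes, and that of Ccn1 includes its step between groups (82.0 ± 41.9 TPM in control and 260.4 ± 53.8 in Bmal1;CKO). Of neighbours in this order, the ranges over libraries were separate only between Tead2 and Lats1 and between Tead4 and Ankrd1. Ccn1 exceeded Wwtr1 in 5 of 6 libraries, the exception being control library 1, where Wwtr1 had 46.5 TPM and Ccn1 39.3. Ccn2 stood below Wwtr1 in 5 of 6, the exception being control library 3, with 41.4 TPM against 40.8. Ccn2 exceeded Amotl2 and Tead2 exceeded Lats1 in 6 of 6. The order among Lats2, Yap1 and Tead4 differed from library to library, since Lats2 exceeded Yap1 in 2 of 6 and Yap1 exceeded Tead4 in 3 of 6.

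Of the 10 genes, 9 passed the filter and were fitted with the 20459 genes tested. The log2 fold change was positive for 4 (Ccn1, Amotl2, Tead2 and Lats1) and negative for 5 (Ccn2, Yap1, Wwtr1, Tead4 and Lats2), with a median of -0.01 beside 0.11 over all genes tested, of which 56.6% were positive. By limma-trend, 0 of the 9 passed the FDR of 0.05, as did 0% of all genes tested, and the smallest adjusted p over all genes was 0.110. At an unadjusted p under 0.05 there were 2, Ccn1 and Amotl2, both higher in Bmal1;CKO, beside 4.92% of all genes tested (3.17% higher and 1.75% lower). The groups did not overlap for the same 2 genes, both higher in Bmal1;CKO, beside 6.62% of all genes tested that were higher and 4.54% that were lower in this way. On the recovered reads edgeR with TMM scaling, edgeR with the size factors and DESeq2 each put 2 of the 9 at an unadjusted p under 0.05, beside 3.80%, 3.87% and 5.94% of all genes tested. DESeq2 put 1 of the 9, Ccn1, past the FDR, beside 0.327% of all genes tested, and edgeR put 0 there with either scaling. The genes were chosen with this contrast known, and nothing is read from these counts.

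**Figure D4:**
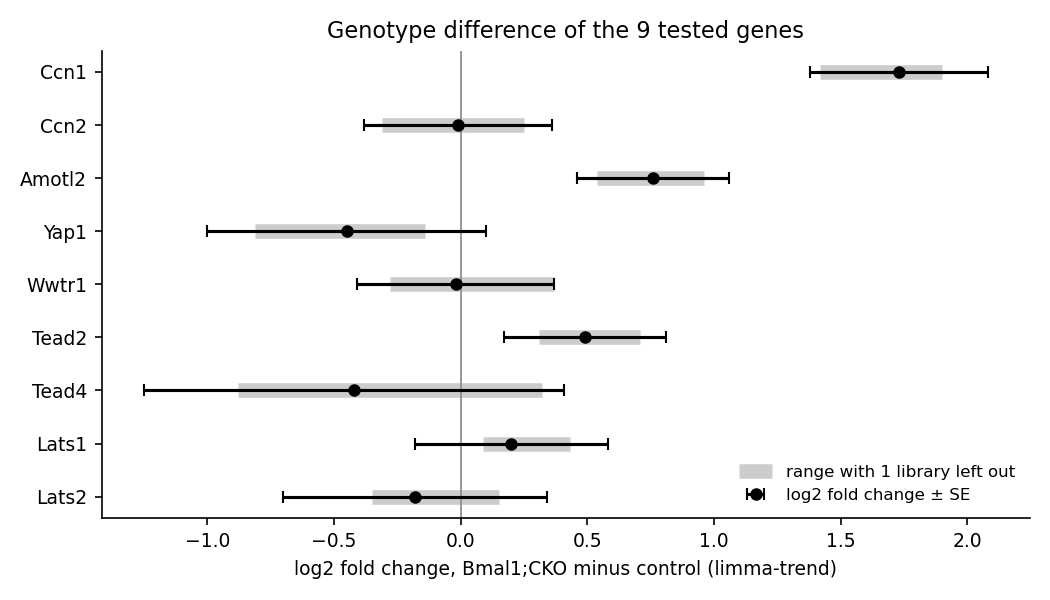
Log2 fold change of Bmal1;CKO over control for the 9 fitted genes (limma-trend), with standard errors as whiskers and the range with 1 library left out as grey bars. Ccn1 at 1.73 and Amotl2 at 0.76 stand to the right, and 4 of the others (Ccn2, Wwtr1, Tead4 and Lats2) change sign when a single library is left out.

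The rest of the pathway was followed in 63 further genes of the CCN family, of the YAP/TAZ-TEAD complex with the VGLL cofactors, of the Hippo kinases and their regulators, of YAP/TAZ targets and of CCN receptors. Of these, 58 were tested, 29 with a positive and 29 with a negative log2 fold change and a median of 0.02, beside 0.11 over all genes. By limma-trend, 0 passed the FDR, and 2 (3.45%) had an unadjusted p under 0.05 beside 4.92% of all genes. For 7 (12.1%) the groups did not overlap, beside 11.2% of all genes. Both shares were near those of all genes tested. On the TPM scale the groups stayed separate for Myof and Tead3 and overlapped for Nuak2, Taok2, Itgb1, Lrp6 and Rbms3.

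Among the 17 further YAP/TAZ targets, 9 were positive and 8 negative, with a median of 0.04 that was -0.28 by edgeR and -0.35 without control library 1, so the list had no steady direction. Nuak2, a kinase of the AMPK family, was the target with an unadjusted p under 0.05 (0.0263 by limma-trend, log2 fold change 1.09, standard error 0.40). It had 1518, 1108 and 3000.2 normalized counts in control and 4207, 3559 and 3255 in Bmal1;CKO, with no overlap, but in TPM control library 3 (21.2) lay above libraries 4 and 5 (18.9 and 20.6). Myof, a membrane repair protein, had 316, 121 and 184 against 2.81, 84.6 and 62.6, and Rbms3, an RNA-binding protein, had 164, 261 and 237 against 74.5, 80.3 and 132. On normalized counts both of these targets were lower in every Bmal1;CKO library than in any control, the opposite side from Ccn1, Amotl2 and Nuak2. Their log2 fold changes were -2.81 (standard error 1.32) for Myof and -1.22 (standard error 0.68) for Rbms3. The unadjusted p by limma-trend was 0.0683 and 0.115. Both genes were low, with means of 0.214 and 0.343 TPM, and Myof had 2 reads in library 4. The summed TPM of the 17 targets was 227, 311 and 616 in control and 239, 272 and 511 in Bmal1;CKO, which overlap throughout.

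The 26 further Hippo kinases and regulators had 12 positive and 14 negative log2 fold changes, a median of -0.02, and 0 at an unadjusted p under 0.05 by limma-trend. The largest were Amot, an angiomotin, at -1.28 (standard error 0.97), the phosphatase Ptpn14 at -1.14 (standard error 0.79) and Stk3, the kinase MST2, at -1.02 (standard error 0.51). Stk3 had 779, 1274 and 1056 normalized counts in control and 298, 458 and 912 in Bmal1;CKO, where library 6 lay within the control values. Taok2, a kinase upstream of LATS, had 2626, 2433 and 2430.0 against 3426, 3326 and 3803 and was the Hippo gene whose groups did not overlap on normalized counts. Vgll4, a TEAD cofactor that competes with YAP, had 7884, 3606 and 3345 against 6152, 6078 and 5940.3 and overlapped (log2 fold change 0.41, standard error 0.36).

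CCN1 and CCN2 act through integrins, syndecans and LRP receptors. Of 11 such genes, 5 were positive and 6 negative, with a median of -0.02. Itgb1, the integrin beta chain that pairs with the alpha 6 chain as a CCN1 receptor, had 13269, 13767 and 22671 normalized counts in control and 7127, 7971 and 11591 in Bmal1;CKO. On this scale every Bmal1;CKO library was below every control, with a log2 fold change of -0.88 (standard error 0.31, unadjusted p = 0.0232 by limma-trend), while in TPM control library 1 (49.5) and control library 2 (74.4) lay below library 6 (75.3). Lrp6, a Wnt coreceptor, had 2105, 2119 and 2073 against 1405, 1870.0 and 1745, also with no overlap in normalized counts (log2 fold change -0.34, standard error 0.27).

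Ccn1 is also an immediate early gene, that is one transcribed within minutes of a stimulus from factors already present, and such genes also respond to tissue dissociation. All 16 other immediate early genes listed had positive log2 fold changes, with a median of 1.05 (0.77 by edgeR, and 0.68 to 1.38 with a library left out) beside 0.11 over all genes. By limma-trend 0 of the 16 passed the FDR, and 6 had an unadjusted p under 0.05 beside 4.92% of all genes tested, namely Fos (1.17), Jun (1.11), Egr1 (1.39), Egr2 (1.09), Dusp1 (0.94) and Nr4a1 (1.44, all log2 fold changes). DESeq2 put Egr2 past the FDR (adjusted p = 0.0169). The list was drawn up with results of these libraries known, so it is not independent evidence of its direction. Nr4a1, an orphan nuclear receptor, had 2423, 2659.6 and 2143 normalized counts in control and 11764, 4683 and 4961 in Bmal1;CKO, and like Ccn1 it was highest in library 4. The summed TPM of the 16 genes was 8099.9, 4743 and 4921 in control and 10317, 14389 and 10588 in Bmal1;CKO, with no overlap. Control library 1 was the highest of the controls in this sum but the lowest in Ccn1, and library 5, not library 4, was the highest of all. The part of the immediate early response in the Ccn1 values was not tested.

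SRF, a factor that responds to actin, shares targets with YAP and TAZ. Of 12 SRF and actin genes 10 were tested, 6 positive and 4 negative, with a median of 0.34 that was -0.21 by edgeR. Srf itself had 1791, 1593 and 2073 normalized counts in control and 3139, 1936 and 2861 in Bmal1;CKO, which overlap. The largest by size were Fhl2 (log2 fold change 2.63, standard error 2.34), which had 0 reads in control library 1, Acta2 (1.70, standard error 1.79), with 9 reads there, and Vcl (-1.21, standard error 0.80). Without control library 1 the values of Fhl2 and Acta2 were -0.47 and -0.29, and by DESeq2 with all libraries they were -0.05 and -0.75.

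Other retinal cells express these genes too, and their markers differed among libraries. The 8 pericyte markers (Pdgfrb, Rgs5 and others) summed to 8.41, 46.4 and 336 TPM in control and 40.0, 25.5 and 42.4 in Bmal1;CKO. Abcc9 and Anpep were at 0 reads in control library 1 and Anpep also in library 2. Control library 1 was thus lowest and control library 3 highest in pericyte markers as in Ccn2 TPM (10.5 and 41.4), and the part of pericyte RNA in Ccn2 was not tested. The pericyte list had 5 of 8 log2 fold changes positive and a median of 0.88, which was -1.47 by edgeR and -1.48 to 3.08 with a library left out.

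The 12 VEC markers all had negative log2 fold changes, with a median of -0.50 (-0.86 to -0.16 with a library left out) and 0 at an unadjusted p under 0.05 by limma-trend. Their summed TPM of 2711, 2151 and 2315 in control and 1776, 1243 and 2883 in Bmal1;CKO overlapped. Of the 9 microglia markers 8 were positive, with a median of 0.40 (0.07 to 0.74 with a library left out) and sums of 46174, 22342 and 31824 TPM against 51753, 44215 and 36800.2. Library 4, the highest in Ccn1, was also the highest in microglia markers, but control library 1, second in these markers, was the lowest in Ccn1. Of 8 Müller glia markers 7 were tested and 5 were positive (median 0.15), with sums of 382, 629 and 745 against 548, 581 and 644 TPM and Aqp4 at 0 reads in libraries 1, 3, 4 and 5. Sox9, a factor of Müller glia and astrocytes, had 896, 2696 and 2044 normalized counts against 6463, 3314 and 3635, with no overlap (log2 fold change 1.33, unadjusted p = 0.0238 by limma-trend). Of 5 astrocyte markers 4 were tested, 2 in each direction (median 0.70, and -0.32 by edgeR), with sums of 2.02 to 41.0 TPM in control and 8.55 to 16.2 in Bmal1;CKO and with Pax2 and Igf2bp1 at 0 reads in library 1. Of the 8 rod markers 7 were negative (median -0.26), with sums of 1064, 1878 and 2222 against 922, 2158 and 2068 TPM, and Cnga1 had a log2 fold change of -1.37 (standard error 0.46, unadjusted p = 0.0178 by limma-trend). The part of these cells in the Ccn1 and Amotl2 values was not tested.

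**Figure D5:**
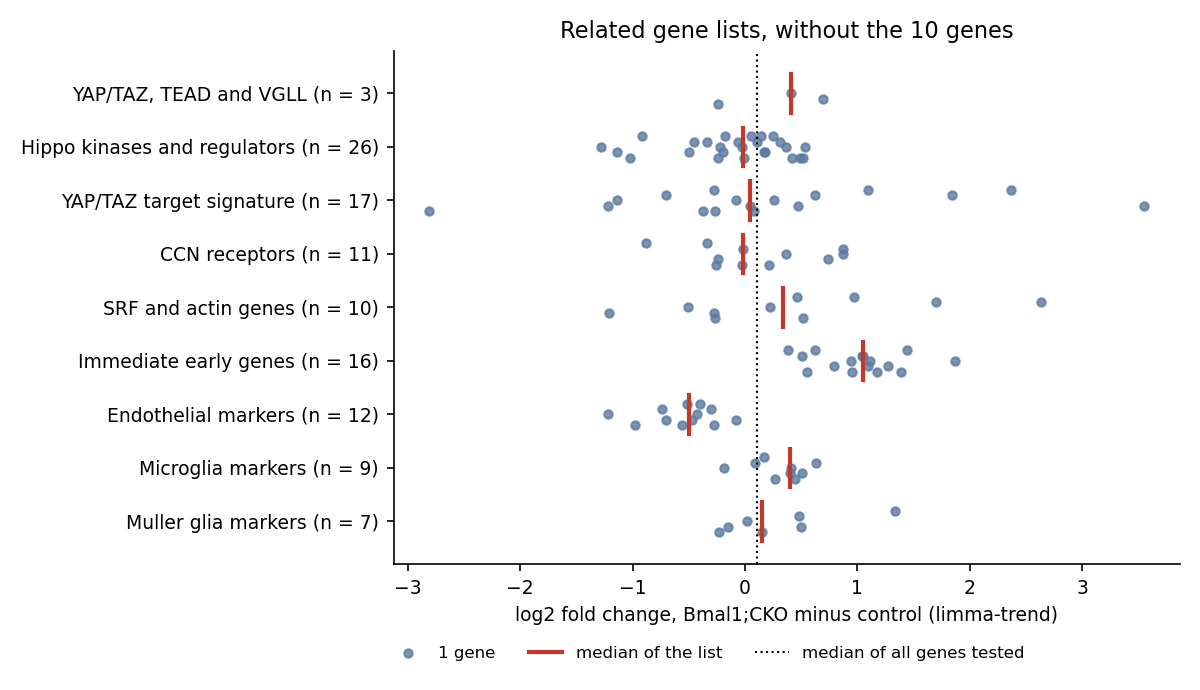
Log2 fold changes of Bmal1;CKO over control for the tested genes of 9 lists, each point a gene, without the 10 genes described here, with the median of each list in red and that of all genes tested (0.11) as a dotted line. The medians of the pathway lists for Hippo regulators (-0.02), YAP/TAZ targets (0.04) and CCN receptors (-0.02) are near 0. The YAP/TAZ, TEAD and VGLL list has only 3 tested genes and a median of 0.41 (0.18 to 0.80 with a library left out). The immediate early genes have a median of 1.05 and the VEC markers of -0.50.

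The genes most like Ccn1 over the 6 libraries were taken by Pearson's r of log2(normalized count + 1) among 15609 genes with a mean of at least 100 normalized counts. They were Entpd6 (0.997), a nucleotidase, Ung (0.986), the uracil-DNA glycosylase, Mrpl37 (0.986), a mitochondrial ribosomal protein, Tmem115 (0.985) and Gm18584 (0.985), and 131 genes had r above 0.9. With the Ccn1 values apart by group, these coefficients mainly carry the step between groups, and with 6 points that share size factors they are a description. Ung had 70.1, 109 and 133 normalized counts in control and 775, 500.1 and 455 in Bmal1;CKO, in the same order of controls as Ccn1 and with library 4 highest.

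The genes most like Ccn2 were Angpt2 (0.995), the angiopoietin of tip cells and remodelling vessels, Scmh1 (0.986), B630019K06Rik (0.986), Prpf4 (0.984), a splicing factor, and Scarf2 (0.982), with 155 genes above 0.9. Angpt2 had 2407, 4192 and 7154 normalized counts in control and 4423, 2526 and 5593 in Bmal1;CKO, lowest in library 1 and highest in library 3, like Ccn2. Without those 2 libraries r was 0.994 over the few remaining ones. Angpt2 was picked for its r over these same libraries, so this value is a description and no separate check. None of the 5 genes most like Ccn1 was among the 5 most like Ccn2.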

How the data were processed

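RNA of sorted VECs from P7.5 retinas was amplified with Smart v4, made into Nextera XT libraries, which do not mark strand, and sequenced paired-end. The authors used FastQC and Trimmomatic, aligned reads with Bowtie to mm10 (Ensembl GRCm38), counted genes with featureCounts and ran DESeq2. The strand setting is not given in the sources used here. The deposited signal is each count over the size factor of its library. The authors' own mean, fold change and p-value columns were not used. Column numbers do not match sample numbers, so columns were used as replicates of their genotype.

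Division by the smallest step gave whole reads for 100.0% of values. Genes with at least 10 reads in 3 libraries were fitted by limma-trend on log2(normalized count + 1), with folds on that scale (for genes low in some libraries they differ from those of the count models in either direction) and Benjamini-Hochberg adjustment (R 4.3.3, limma 3.58.1). Alternatives were edgeR 4.0.16 with TMM or the size factors, DESeq2 1.42.0, limma on TMM-scaled log2 CPM, pseudocounts of 0.5 and 10, other filters and each library left out. Limma-trend, edgeR with TMM and DESeq2 were tested on simulated data, and the other settings were not. TPM used exonic lengths of GENCODE M21 (GRCm38). Limits from counts cover counting error only. Figures and tables were made with Python 3.11.15, pandas 2.3.3 and matplotlib 3.10.9.

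The genes and lists were chosen with earlier results of these data known. Named were the 10 genes, their TEAD and CCN paralogs, list genes with an unadjusted p under 0.05 (otherwise the 3 largest changes) and the 5 genes most like Ccn1 and Ccn2. The exceptions were the VEC, microglia, astrocyte and pericyte lists, where no gene was under that p and the largest changes were not given. Myof, Rbms3, Taok2, Lrp6 and Srf were named after their values were seen.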

Additional observations from a re-analysis of the deposited data

How the results depend on the processing

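By limma-trend 0 genes passed the FDR of 0.05, with 1007 at an unadjusted p under 0.05. DESeq2 called 67 (0.327%), edgeR 0 with either scaling (777 and 792 at an unadjusted p under 0.05), and the filters of 1 read in total and of 10 reads in every library gave 1 each. With a library left out the count was 0 to 6, the 6 without control library 1. The paper describes the control sample tdTom1 as an outlier in its principal-component analysis, with no technical issue found. Which control column holds that sample cannot be told from the column numbers. Of the 10 genes, 0 were called by limma-trend, 1 (Ccn1) by DESeq2 and 0 to 0 with a library left out. At an unadjusted p under 0.05 there were 2, and 1 to 2 with a library left out. Ccn1 stayed under 0.05 in all 14 alternatives and Amotl2 in 9, since Amotl2 was above it in 5 of the 6 fits without a library. Of the further pathway genes 2 were at this level, 4 with 10 reads in every library, and 0 (without Bmal1;CKO library 4) to 8 (without control library 1) with a library left out. The medians of all genes were 0.11 by limma-trend and -0.03 by edgeR and DESeq2.

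Under the alternatives, 118 of 126 log2 fold changes of the 9 fitted genes kept their sign and moved by less than the main standard error. The other 8 changed sign, whatever the size of the move, all with a library left out. These were of Ccn2 (range -0.31 to 0.25), Wwtr1 (-0.28 to 0.37), Tead4 (-0.88 to 0.32) and Lats2 (-0.35 to 0.15). The cause was not tested. No paired analysis was possible because the columns carry no replicate number that matches a sample. With 3 libraries a group, the groups were separate only for Ccn1 and Amotl2 on normalized counts, and only for Ccn1 in TPM.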
